A study of Mus musculus with 18 samples.

Results

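The nuclear-encoded subunits and assembly factors of the mitochondrial respiratory chain and ATP synthase were examined in ED1SQ4 lung cancer cells treated with the CDK2/9 inhibitor CYC065. Members were chosen by symbol: rows beginning with Nduf, Uqcr, Atp5 or Cox4 to Cox8, and Sdha, Sdhb, Sdhc and Sdhd, without symbols marked as pseudogenes by -ps. This gave 98 rows of 55450, made up of 41 complex I rows, 8 complex I assembly factors, 4 complex II rows, 8 complex III rows, 19 complex IV rows and 18 ATP synthase rows. Of these, 94 were annotated as protein coding and 4 (Ndufa11b, Ndufb4c, Ndufs6b and Cox6c2) as processed pseudogenes.

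ED1SQ4 is a murine lung cancer line derived from tumors of mice with transgenic cyclin E overexpression. Cells received vehicle or 0.5 μM CYC065 (Fadraciclib) for 72 hours, were stained with a DNA dye and were sorted by DNA content into a diploid (2N) and a polyploid (4N) population, with unsorted cells (all cells) beside them. A gate at 4N DNA content also takes in diploid cells in G2 or mitosis. The 6 conditions were therefore vehicle and CYC065 in all cells, 2N cells and 4N cells, all of the same line, and rRNA-depleted total RNA was sequenced.

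Each condition had 3 count columns, which the labels call replicates 1 to 3 and whose headers carry 1 library name with part numbers. Their totals differed by 0.0154% to 0.0681% within a condition. Over genes with whole counts the columns of a condition differed by no more than counting error (chi-square per degree of freedom 0.991 to 1.02), and over the members the value was 0.899 to 1.06. Genes with fractional counts, whose reads were split between genes by the model, were at 4.35 to 7.60. The 3 columns were therefore summed and counted as 1 library per condition. The summed libraries held 54750203 to 62795507 counts, of which the members took 0.464% to 0.636%. As a check of the label, the 6 epithelial and 6 lung epithelial markers examined (among them Epcam, Cdh1, Nkx2-1 and Sftpc) were all under 1 CPM in every library, where CPM is the count scaled to a common library size with TMM factors. The summed level of the 5 mesenchymal markers Vim, Col1a1, Col1a2, Pdgfra and Pdgfrb was 10699.7 to 17002 CPM. Lung epithelial markers were thus at or near 0 in a line labelled as lung cancer, with 3 of them at 0 in every library. Immune markers summed to at most 0.0342 CPM and endothelial markers to at most 1.88 CPM.

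The respiratory chain passes electrons from NADH and succinate to oxygen through complexes I to IV in the inner mitochondrial membrane, and ATP synthase uses the resulting proton gradient to make ATP. Most subunits are encoded in the nucleus and imported, while a small hydrophobic core is encoded by mitochondrial DNA, so that the complexes depend on expression from both genomes. Proliferating cancer cells use the chain for ATP and also to regenerate electron acceptors for nucleotide and aspartate synthesis.

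With CYC065, nuclear-encoded respiratory genes were lower more often than higher, by small amounts in most subunits and by larger ones in a few. Across the 3 populations, 32 of the 88 members tested were lower and 7 were higher at an adjusted p under 0.05 (edgeR quasi-likelihood test over all genes, with population as a block), and 49 were not called. Over all 14762 genes tested, 54.9% were called, 29.9% lower and 25.1% higher, against 44.3% of the members, 36.4% lower and 7.95% higher. With scaling by library size alone 23 members were lower and 9 higher, beside 3720 and 3930 of all 14762 genes. The DESeq2 test gave 25 and 9, beside 4075 and 4083. Under both, the share of members lower was close to that of all genes, while the share higher stayed below it. The median log2 fold change was -0.21 over the members and -0.03 over all genes. With a trend over exonic length removed, it was -0.12 over the members and -0.035 over all genes, and the members are short genes. Only 4 members (4.55%) were called with a log2 fold change past 1 in size, all of them complex I assembly factors, beside 23.6% of all genes. The 3 CYC065 libraries all lay below the 3 vehicle libraries for 43 members (48.9%, against 32% of all genes tested) and all lay above them for 15 (17.0%, against 26.8%).

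The spread in this test was that of the drug response between the 3 populations, not between cultures. An exact permutation test of 3 libraries against 3 that ignores the pairing by population cannot go below p = 0.1. Exchanging treatments only within each population allows fewer arrangements, so the limit is then higher. Without the 2N libraries 19 members were lower and 2 higher, beside 3021 and 2208 of 14579 genes (35.9% called). The counts without the 4N libraries were 20 and 4, beside 3434 and 2602 of 14519 genes (41.6%). Leaving out the all-cell libraries gave 37 and 10, beside 4910 and 4260 of 14482 genes (63.3%). Levels are relative to all RNA in a library, so that less RNA per cell and fewer cells expressing a gene cannot be told apart.

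The promoters of the members that the results turn on are shown first, since the 3 genes of the ATP synthase c ring fell together and since Ndufaf8 and Ndufaf4 had the largest called falls and Ndufaf1 the largest called rise. Each window runs from 250 bases before to 50 bases after the RefSeq start, 5′ to 3′ on the strand of the gene, in build GRCm38.p6. Capitals mark exact matches, on either strand, to GCGCATGC (bound by NRF1), CCGGAAG (ETS factors), AAGATGGC (YY1), CACGTG (the E-box) and CCAAT.
Atp5g1 (chr11:96075582-96075881, minus strand): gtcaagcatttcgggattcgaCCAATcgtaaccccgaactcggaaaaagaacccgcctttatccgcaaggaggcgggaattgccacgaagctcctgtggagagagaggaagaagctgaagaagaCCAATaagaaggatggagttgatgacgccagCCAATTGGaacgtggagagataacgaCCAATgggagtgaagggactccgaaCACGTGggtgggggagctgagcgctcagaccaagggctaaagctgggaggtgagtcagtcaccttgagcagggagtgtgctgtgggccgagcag
Atp5g2 (chr15:102670998-102671297, minus strand): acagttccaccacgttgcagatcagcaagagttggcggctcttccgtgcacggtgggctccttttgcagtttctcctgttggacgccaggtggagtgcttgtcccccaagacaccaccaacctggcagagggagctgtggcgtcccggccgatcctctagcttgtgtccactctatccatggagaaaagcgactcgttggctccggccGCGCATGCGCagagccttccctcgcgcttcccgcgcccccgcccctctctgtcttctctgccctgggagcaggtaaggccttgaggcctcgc
Atp5g3 (chr2:73911277-73911576, minus strand): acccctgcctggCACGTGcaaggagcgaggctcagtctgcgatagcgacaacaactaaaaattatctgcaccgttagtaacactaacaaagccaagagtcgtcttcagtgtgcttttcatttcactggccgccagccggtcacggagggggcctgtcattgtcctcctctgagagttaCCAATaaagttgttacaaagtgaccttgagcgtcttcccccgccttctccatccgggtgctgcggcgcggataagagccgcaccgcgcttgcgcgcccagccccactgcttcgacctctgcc
Ndufaf8 (chr11:120098684-120098983, plus strand): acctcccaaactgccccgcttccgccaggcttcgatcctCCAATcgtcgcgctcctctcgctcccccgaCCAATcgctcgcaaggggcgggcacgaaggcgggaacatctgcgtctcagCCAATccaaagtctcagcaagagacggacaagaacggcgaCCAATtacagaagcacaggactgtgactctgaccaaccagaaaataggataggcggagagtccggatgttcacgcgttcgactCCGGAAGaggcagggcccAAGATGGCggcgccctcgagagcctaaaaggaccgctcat
Ndufaf4 (chr4:24897833-24898132, plus strand): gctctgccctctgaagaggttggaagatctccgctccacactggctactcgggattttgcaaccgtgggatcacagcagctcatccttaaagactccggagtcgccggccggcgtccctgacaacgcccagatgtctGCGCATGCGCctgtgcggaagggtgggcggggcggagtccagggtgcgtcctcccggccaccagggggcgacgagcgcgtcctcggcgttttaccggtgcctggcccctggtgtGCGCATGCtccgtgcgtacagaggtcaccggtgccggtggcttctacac
Ndufaf1 (chr2:119662785-119663084, minus strand): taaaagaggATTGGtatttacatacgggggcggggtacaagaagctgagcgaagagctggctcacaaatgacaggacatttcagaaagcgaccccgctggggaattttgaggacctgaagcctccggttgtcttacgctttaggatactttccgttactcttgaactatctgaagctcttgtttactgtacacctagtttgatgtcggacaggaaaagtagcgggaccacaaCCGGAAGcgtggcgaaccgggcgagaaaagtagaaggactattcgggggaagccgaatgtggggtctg

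No motif was present in all 6 windows. Atp5g2 held 2 overlapping matches to GCGCATGC, on opposite strands, and Ndufaf4 held 3 in all. Atp5g1 held 1 E-box and 5 matches to CCAAT, 2 of which overlapped on opposite strands, and Atp5g3 held 1 of each. Ndufaf8 held 1 match to CCGGAAG, 1 to AAGATGGC and 4 to CCAAT, and Ndufaf1 held 1 match to CCGGAAG and 1 to CCAAT. A match is a string of letters, not a bound site, and where there was no match only these letters were missing from the window.

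Among all members, 76 of 97 symbols had a promoter in the RefSeq table. GCGCATGC was present in 12 of these 76 (15.8%) and in 3.05% of the 27025 genes with a promoter. That reference was not limited to the genes tested here, so it includes genes not expressed in these cells. CCGGAAG was in 18 (23.7%, against 9.93%), AAGATGGC in 11 (14.5%, against 3.19%), CACGTG in 6 (7.89%, against 8.09%) and CCAAT in 34 (44.7%, against 41.1%). Of the 32 members that fell, 7 that rose and 49 not called, 28, 5 and 40 had a promoter in that table. GCGCATGC was in 6 of these 28, in 2 of the 5 and in 4 of the 40. For CCGGAAG the corresponding counts were 7, 2 and 9, for AAGATGGC 5, 0 and 6, for CACGTG 3, 1 and 2, and for CCAAT 10, 5 and 17. The groups were small and these counts were not tested.

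ATP synthase genes that fell with CYC065 included all 3 of the c ring, 3 of 5 of the catalytic head and 1 of 4 of the peripheral stalk. Of its 17 tested members 8 fell (47.1%, against 29.9% of all genes), 1 rose (5.88%, against 25.1%) and 8 were not called. The median log2 fold change was -0.23. The summed level of all 17 was 2539, 2704 and 2809 CPM in the vehicle libraries of all cells, 2N and 4N, and 1765, 1984 and 1999 CPM in the CYC065 libraries. The 3 CYC065 sums therefore all lay below the 3 vehicle sums.

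Atp5g1, Atp5g2 and Atp5g3 encode the same mature c subunit, which forms the rotor ring through which protons pass. Atp5g3 (ENSMUSG00000018770.9, chr2:73908447-73911326 in mm10) was at 173, 205 and 199.6 CPM in the vehicle all-cell, 2N and 4N libraries and at 97.3, 101 and 97.3 CPM with CYC065. Its log2 fold change was -0.97 ± 0.09 (SE), with an edgeR adjusted p of 0.000592, a level 1.95-fold lower. Atp5g1 (ENSMUSG00000006057.15, chr11:96068852-96075670) was at 84.3, 93.9 and 92 CPM with vehicle and 49.2, 52.5 and 49 CPM with CYC065, in the same order of populations. The values for Atp5g2 (ENSMUSG00000062683.11, chr15:102662864-102672352) were 115, 121 and 135 CPM and 70.2, 76.2 and 79.5 CPM. For none of the 3 genes did the treated and vehicle libraries overlap, and the ratios in single populations stayed within a narrow range, from -0.67 for Atp5g2 in 2N cells to -1.04 for Atp5g3 in 4N cells. The log2 fold changes of Atp5g1 and Atp5g2 were -0.84 ± 0.089 (SE) and -0.72 ± 0.084 (edgeR adjusted p = 0.000841 and 0.00116). Atp5g2 shared 38.3% and Atp5g1 11.1% of their 50-base stretches with other annotated genes, most often with a processed pseudogene, while Atp5g3 shared none.

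In the catalytic head, Atp5b, the catalytic beta subunit, was at 725, 744 and 803 CPM with vehicle and 449, 577 and 589 CPM with CYC065 (log2 fold change -0.50 ± 0.11, adjusted p = 0.00991, edgeR). Its alpha partner Atp5a1 fell from 581, 665 and 664 CPM to 384, 404 and 397 CPM (-0.68 ± 0.094, adjusted p = 0.00195, edgeR). Both were lower in every population, Atp5b most in all cells (-0.69) and Atp5a1 most in 4N cells (-0.74). Atp5c1, the gamma subunit of the central stalk, fell less (-0.26 ± 0.083, adjusted p = 0.0402, edgeR), a call that was lost under 8 of 15 alternative ways of processing or testing the counts. The other genes of the head, Atp5d (delta) and Atp5e (epsilon), had values of -0.23 and -0.048 and were not called.

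In the peripheral stalk, which holds the head still against the rotor, Atp5f1 fell by edgeR (-0.62 ± 0.084, adjusted p = 0.00190), from 179, 191 and 223 CPM to 111, 129 and 146 CPM. Its neighbours in the stalk, Atp5h, Atp5o and Atp5j, had log2 fold changes of -0.19, -0.17 and 0.22 and were not called. Among the small membrane subunits, Atp5k fell (-0.53 ± 0.11) and Atp5l rose (0.27 ± 0.09), while Atp5j2 and Atp5mpl were at 0.066 and -0.23 without a call. Atp5l, the only ATP synthase member that rose, was at 63.6, 61.4 and 62.1 CPM with vehicle and 73.2, 78.5 and 74.2 CPM with CYC065, and lost its call under 5 of 15 alternatives. Atp5s, which is named with the family but is not a structural subunit, was at 0.20 and was not called.

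**Figure D1:**
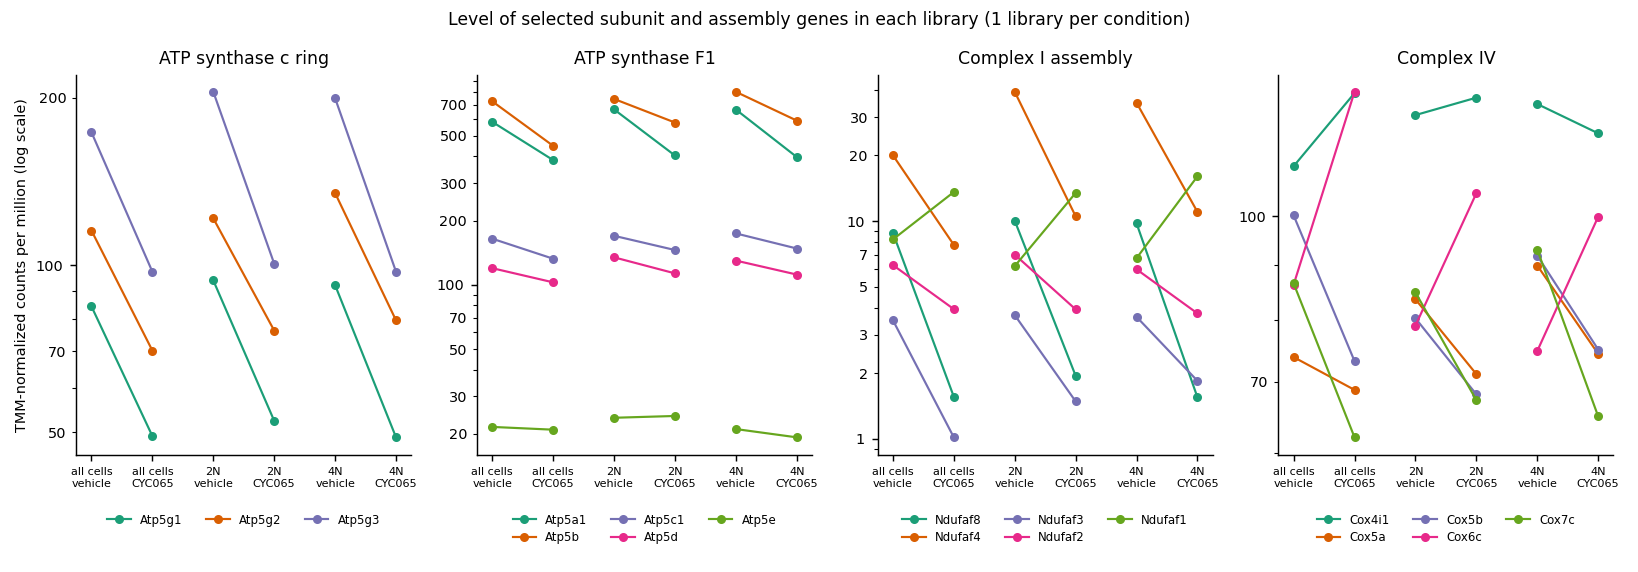
Level of selected members in each of the 6 libraries, as TMM-normalized CPM on a log axis, with a line joining vehicle and CYC065 of the same population. All 3 c ring genes drop in each population, Atp5e stays near its vehicle level, Ndufaf1 runs upward where the other assembly factors shown run downward, and Cox6c rises while Cox7c falls.

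Complex I assembly factors held the largest changes among all members. These proteins help to put the complex together and are not part of the finished enzyme. Of the 8 genes, 4 fell (50%, against 29.9% of all genes), 1 rose (12.5%, against 25.1%) and 3 were not called. The median log2 fold change was -0.49, or -0.25 over those with under 10% of 50-base stretches shared with other genes. Ndufaf8 (ENSMUSG00000078572.3), which acts with Ndufaf5 early in assembly, was at 8.83, 10 and 9.76 CPM in the vehicle libraries and 1.56, 1.95 and 1.55 CPM in the CYC065 libraries. This was a 5.67-fold lower level (-2.50 ± 0.17, adjusted p = 0.000332, edgeR), and every CYC065 library lay far below every vehicle library.

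Ndufaf4 (ENSMUSG00000028261.13) went from 20, 39.2 and 34.9 CPM to 7.78, 10.5 and 11 CPM (-1.64 ± 0.14, adjusted p = 0.000463, edgeR). Its vehicle level was lower in unsorted than in sorted cells, so that the ratio was -1.37 in all cells, -1.90 in 2N cells and -1.66 in 4N cells. Ndufaf3, the partner of Ndufaf4 in assembly of the peripheral arm, was a low transcript at 3.51, 3.70 and 3.63 CPM with vehicle and 1.02, 1.49 and 1.85 CPM with CYC065 (-1.35 ± 0.24, adjusted p = 0.00504, edgeR). Ndufaf2 fell by a smaller step (-0.73 ± 0.16), and 64.1% of its 50-base stretches were shared with other annotated genes, most often the overlapping B230220B15Rik on the opposite strand. Ndufaf5, Ndufaf6 and Ndufaf7 had log2 fold changes of -0.072, -0.18 and -0.25 and were not called.

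Ndufaf1 (ENSMUSG00000027305.9), a factor for the membrane arm of complex I, moved the opposite way. It was at 8.23, 6.21 and 6.76 CPM with vehicle and 13.6, 13.5 and 16 CPM with CYC065, a 2.04-fold higher level (1.03 ± 0.15, adjusted p = 0.00241, edgeR). Its level was higher in each population, with log2 ratios of 0.72 (95% counting interval 0.56 to 0.89) in all cells, 1.11 (95% counting interval 0.93 to 1.3) in 2N cells and 1.25 (95% counting interval 1.08 to 1.41) in 4N cells.

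**Figure D2:**
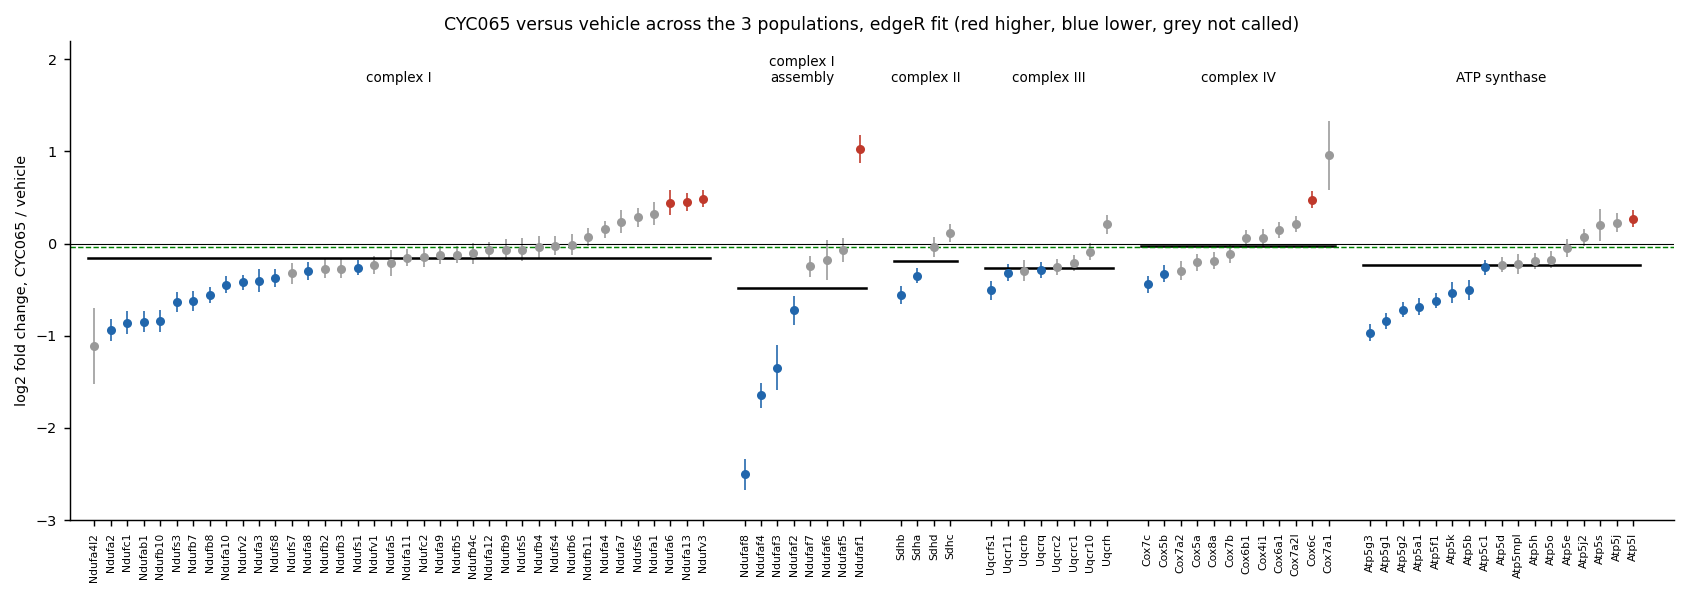
Log2 fold change of CYC065 over vehicle across the 3 populations (vertical axis) for 87 of the 88 tested members, grouped by complex and sorted within it, with bars of ± 1 SE from the edgeR fit. Black lines are the medians of all tested members of each complex, from -0.49 for the assembly factors (-0.25 over those with few shared 50-base stretches) to -0.03 for complex IV, and the dashed green line is the median of all genes, -0.03.

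Complex I, the NADH dehydrogenase, had 39 tested members, of which 13 fell, 4 rose and 22 were not called. The share lower was 33.3%, near the 29.9% of all genes, and the share higher 10.3%, against 25.1%. The median was -0.16. This median was -0.079 with scaling by library size alone, -0.078 with the length trend removed and -0.27 over subunits with under 10% shared 50-base stretches. No complex I subunit was called with a log2 fold change past 1. Among its core subunits, which form the peripheral arm that oxidizes NADH, 4 fell. Ndufs3 was at 36.7, 42.1 and 46.1 CPM with vehicle and 26.2, 28.2 and 25.6 CPM with CYC065 (-0.64 ± 0.11, adjusted p = 0.00438, edgeR). Ndufv2, Ndufs8 and Ndufs1 fell by less, with log2 fold changes of -0.42, -0.37 and -0.26. Ndufs7 and Ndufv1 were at -0.32 and -0.23 with edgeR adjusted p of 0.0506 and 0.0891, outside the threshold.

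Among the accessory subunits of complex I, Ndufa2 (ENSMUSG00000014294.4) had the largest called fall of the complex, from 31.3, 34.5 and 33 CPM to 18.7, 18.1 and 14.8 CPM (-0.94 ± 0.12, adjusted p = 0.00144, edgeR). Ndufc1, Ndufab1 (the mitochondrial acyl carrier protein) and Ndufb10 followed at -0.86 ± 0.12, -0.85 ± 0.12 and -0.84 ± 0.12. Ndufc1 stood at 18.5, 20.5 and 20.7 CPM with vehicle and 9.34, 13 and 10.8 CPM with CYC065, so its groups did not overlap. Of the 10 Ndufb genes of the membrane arm 3 fell (Ndufb7, Ndufb8 and Ndufb10) and none rose. The share lower, 30%, was near the 29.9% of all genes. Ndufa10, Ndufa3 and Ndufa8 also fell, at -0.44, -0.40 and -0.30, and the latter 2 lost their calls under 7 of 15 alternatives.

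Ndufv3, Ndufa13 and Ndufa6 were the accessory subunits that rose. Ndufv3, a subunit of the NADH-binding module, was at 38.9, 31.8 and 33.1 CPM with vehicle and 52.8, 47.9 and 44.5 CPM with CYC065 (0.49 ± 0.094, adjusted p = 0.00667, edgeR). Ndufa13, also known as GRIM-19, had 0.45 ± 0.10 and shared 28.5% of its 50-base stretches with other genes, most often its overlapping neighbour Tssk6. Ndufa6 had 0.45 ± 0.13, and its response was larger in all cells (0.78) than in 2N (0.30) or 4N cells (0.26), a difference that was not tested. Ndufs6, Ndufa1 and Ndufb11 had all 3 treated libraries above the vehicle ones without a call, at 0.28, 0.33 and 0.075.

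Ndufa4, first described in complex I and now placed in complex IV, was at 104, 90.2 and 92.2 CPM with vehicle and 103, 107 and 108 CPM with CYC065, and was not called (0.16 ± 0.095, adjusted p = 0.205, edgeR). Its paralog Ndufa4l2 was close to absent, at 0.419, 0.570 and 0.444 CPM with vehicle and 0.127, 0.376 and 0.192 CPM with CYC065. The fitted value of -1.11 ± 0.41 for Ndufa4l2 rested on few counts and was not called (edgeR adjusted p = 0.0616). The pseudogene row Ndufb4c, whose 50-base stretches are all found in Ndufb4 or other genes, was at -0.11, and Ndufb4 at -0.041, neither called. Summing the 2 rows, which was chosen after seeing the data, gave -0.08 and no call.

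Complex II, succinate dehydrogenase, is the only one of these enzymes encoded wholly in the nuclear genome and also works in the citric acid cycle. Its 2 catalytic subunits fell, which is 50% of its 4 genes, against 29.9% of all genes. Sdhb, the iron-sulfur subunit, was at 53.5, 54.7 and 65.7 CPM with vehicle and 38.6, 38.9 and 40.2 CPM with CYC065 (-0.56 ± 0.10, adjusted p = 0.00479, edgeR). Sdha, the flavoprotein, was at 103, 101 and 104 CPM and 78.5, 80.8 and 82.6 CPM (-0.35 ± 0.084, adjusted p = 0.0149, edgeR). Neither gene had overlapping groups. The membrane anchors Sdhc and Sdhd had log2 fold changes of 0.12 ± 0.10 and -0.036 ± 0.11 and were not called.

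Complex III passes electrons from ubiquinol to cytochrome c. Of its 8 members 3 fell (37.5%, against 29.9% of all genes), none rose (against 25.1%) and 5 were not called. The median was -0.27. Uqcrfs1, the Rieske iron-sulfur protein, was at 45.1, 49.2 and 53 CPM with vehicle and 34.8, 36.1 and 32.5 CPM with CYC065 (-0.51 ± 0.11, adjusted p = 0.00886, edgeR), without overlap. The small subunits Uqcr11 and Uqcrq fell by 0.32 and 0.28 on the log2 scale, calls that were lost under 7 and 6 of 15 alternatives. The core proteins Uqcrc1 and Uqcrc2 were at -0.21 and -0.25, Uqcrb at -0.29 and Uqcr10 at -0.091, none of them called. Uqcrh was the only one of these 8 members with a value above 0 (0.21 ± 0.10), not called. The complex III subunits Cyc1 and mt-Cytb are not members. Cyc1 fell (-1.14 ± 0.10), and mt-Cytb was at 0.27 and not called.

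Complex IV, cytochrome c oxidase, had few called members. Of its 12 tested members 2 fell (16.7%, against 29.9% of all genes), 1 rose (8.33%, against 25.1%) and 9 were not called. The median of -0.03 was close to that of all genes. The sign of this median was not stable, since it was 0.05 with scaling by library size alone and 0.07 after a trend over exonic length was removed. Cox7c was at 86.5, 84.9 and 93 CPM with vehicle and 62.1, 67.3 and 65 CPM with CYC065 (-0.44 ± 0.091, adjusted p = 0.00813, edgeR). Cox5b, a zinc-binding subunit, fell as well (-0.33 ± 0.092, adjusted p = 0.0257, edgeR). Cox6c rose, from 86.3, 79 and 74.8 CPM to 131, 105 and 99.9 CPM (0.48 ± 0.09, adjusted p = 0.00606, edgeR), and its groups did not overlap. Cox4i1 and Cox5a, which join the mitochondrially encoded core early in assembly, had values of 0.064 ± 0.10 and -0.20 ± 0.09 and were not called.

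Tissue-restricted isoforms were nearly silent, so transcripts of complex IV came from the ubiquitous forms in all 6 conditions. Cox4i2, Cox6b2, Cox8b and Cox8c, the lung, testis, heart and testis forms, had at most 1 count in any library, and Cox8b and Cox8c had 0 in all, which allows up to 0.0545 CPM (3 counts). Cox6a2, the heart and muscle form, had 1 to 9 counts, and Cox7b2 had 0 to 4. Against these, Cox4i1, Cox6a1, Cox6b1, Cox7b and Cox8a were at 111, 101, 88.8, 102 and 125 CPM in vehicle all cells. Cox7a1, the heart and muscle form of subunit 7a, was the only one of this kind that could be tested. It was at 0.297, 0.267 and 0.205 CPM with vehicle and 0.454, 0.564 and 0.473 CPM with CYC065, and was not called (0.96 ± 0.37, adjusted p = 0.0703, edgeR). Its ubiquitous counterpart Cox7a2 was at -0.29, and Cox7a2l, which joins supercomplexes, at 0.21, neither called. Counting these isoforms, 10 members were not tested, the remaining ones being a second row named Atp5o and the pseudogene rows Cox6c2, Ndufa11b and Ndufs6b, each at 2 counts or fewer in every library.

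**Figure D3:**
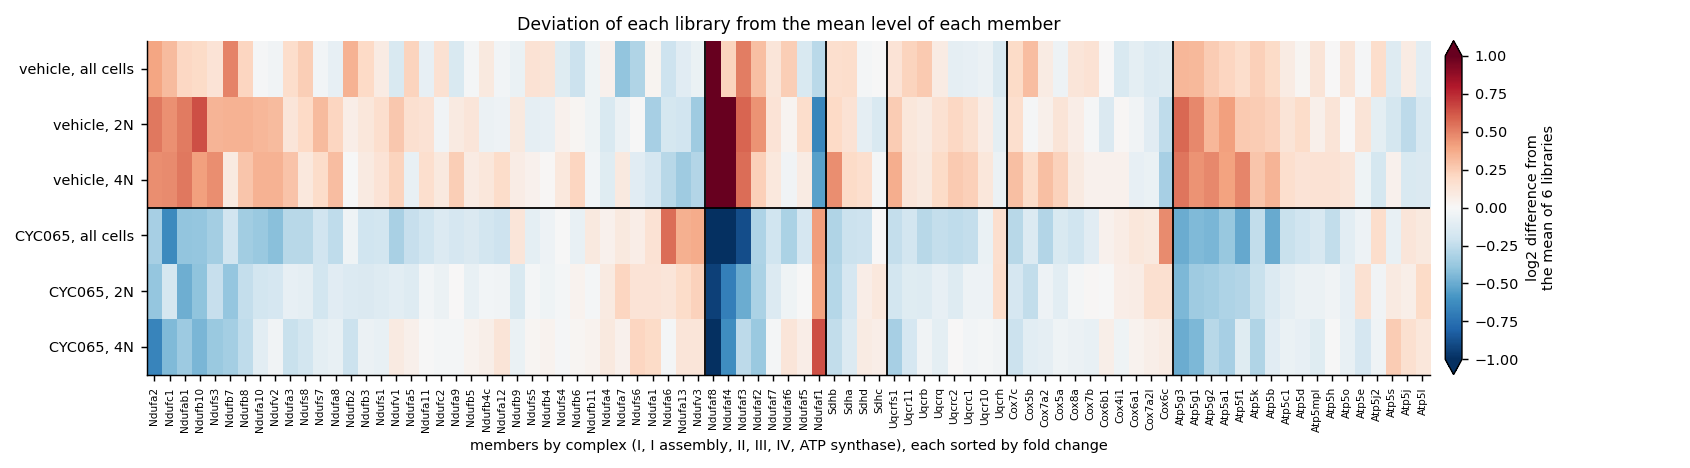
Deviation of each library (rows) from the mean log2 level, log2(CPM + 0.5), of each member (columns) over the 6 libraries, for 85 members with at least 100 counts in some library. Vehicle rows lie above the black line and CYC065 rows below it, and within each treatment the 3 populations show the same colour for each c ring gene.

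Per kilobase of exon, the members spanned a wide range of levels. The highest means over the 6 libraries were 186 CPM per kilobase for Cox8a, 165 for Atp5a1, 155 for Cox6a1 and 153 for Atp5b. The lowest among tested members were Ndufa4l2 at 0.324 and Cox7a1 at 0.704. By complex, the median level per kilobase averaged over libraries was 64.5 (SD over the 6 libraries 4.49) for complex IV, 36.9 ± 6.70 for ATP synthase, 34.2 ± 2.98 for complex III, 24.2 ± 2.08 for complex I, 22.0 ± 3.91 for complex II and 3.61 ± 1.03 for the assembly factors. This SD spans both treatments. The order depends on the length assigned to each gene, since with the longest transcript as length complex IV was at 93.8, ATP synthase at 65.5, complex III at 46.0, complex II at 35.5 and complex I at 31.5 CPM per kilobase, so that complexes I and II changed places.

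The response in each population could be described but not tested, with 1 library per condition. In all cells 3 of 86 members were past a log2 ratio of 1 in size, against 25.6% of all genes, in 2N cells 8 of 88 against 28.1%, and in 4N cells 6 of 87 against 25.6%. Past 0.5, 23 members in all cells (53.4% of all genes), 22 in 2N cells (56.3%) and 22 in 4N cells (53.9%) were counted. The median ratio of the members was -0.25 in all cells, -0.21 in 2N and -0.18 in 4N, beside -0.07, -0.07 and -0.03 for all genes. Scaling by library size alone moved the median of all genes in 2N cells to 0.07 and in 4N cells to 0.11, while the members stayed 0.18, 0.14 and 0.14 below it in all cells, 2N and 4N. Of the 86 members with a ratio in each population, 70 had the same sign in all 3. The share of all genes with the same sign is not given here, so this count has no reference.

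Between 4N and 2N cells no member was called. The edgeR test over the 4 sorted libraries, with treatment as a block, called 0 of 88 members and 1.28% of all 14482 genes, 0.822% higher and 0.463% lower, with 0.359% past a log2 fold change of 1. DESeq2 and limma-voom on the same libraries also called 0. An unadjusted p under 0.05 was reached by 1429 genes and by 1 member, Atp5e. Its log2 fold change of 4N over 2N was -0.25 ± 0.11, with an edgeR adjusted p of 0.475. The test had 1 residual degree of freedom, and a missed threshold does not show that the populations were alike. The median over the members was 0.02 and over all genes 0.01.

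Per member, the 4N over 2N values were small. Leaving out the low-count genes Ndufa4l2 (-0.63) and Cox7a1 (-0.31), they ran from -0.25 for Atp5e to 0.21 for Atp5s. In complex I the extremes were Ndufa12 at 0.20 ± 0.10 and Ndufa2 at -0.17 ± 0.11. Ndufb4c (0.13) followed Ndufa12. Among the assembly factors Ndufaf1 (0.19) and Ndufaf3 (0.13) were highest and Ndufaf8 (-0.16) and Ndufaf2 (-0.15) lowest. All 4 complex II genes were above 0, from 0.039 for Sdha and 0.045 for Sdhc to 0.14 for Sdhd and 0.16 for Sdhb. Complex III ran from -0.087 for Uqcrh and -0.022 for Uqcrfs1 to 0.052 for Uqcrc1 and 0.10 for Uqcrc2. Complex IV ran from -0.076 for Cox6c to 0.13 for Cox6b1 and 0.17 for Cox5b, with Cox7a1 left out. In ATP synthase, Atp5f1 was at 0.20 and Atp5g1 at -0.063.

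**Figure D4:**
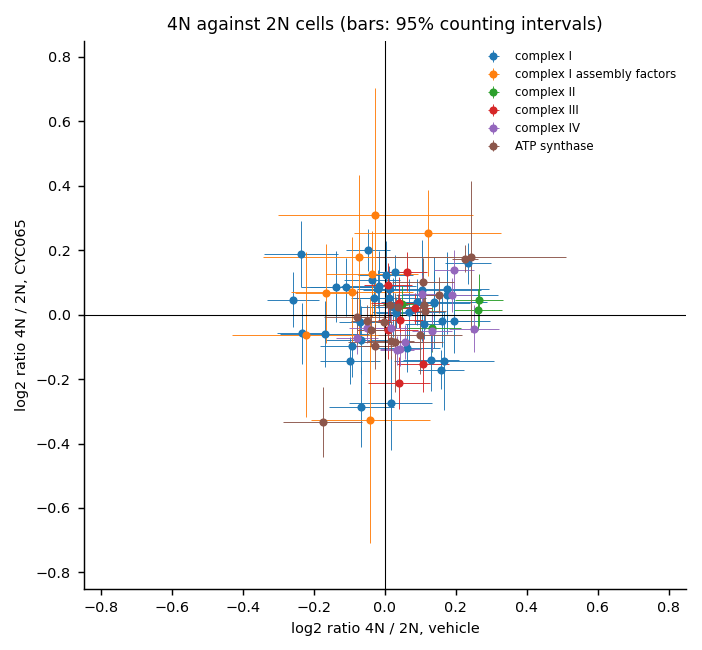
Log2 ratio of 4N over 2N cells with vehicle (horizontal) and with CYC065 (vertical) for 86 members, with 95% counting intervals and colours by complex. All points lie between -0.33 and 0.31 on both axes, and no point is past 0.5.

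Within each treatment no member was past a log2 ratio of 0.5 between 4N and 2N cells, while 2.69% of all genes were past 1 with vehicle and 3.56% with CYC065, and 11.3% and 12.5% were past 0.5. The median over the members was 0.03 with vehicle and 0.02 with CYC065. The difference between the 2 ratios was past 0.5 for 1 member, Ndufa4l2 at -0.58 (95% counting interval -1.81 to 0.64), an interval that includes 0, against 19.6% of all genes. No member's difference was past 1 (7.13% of all genes). Ndufa5 had the next largest difference, 0.43 (95% counting interval 0.28 to 0.57), with levels of 29.2, 27.8 and 23.6 CPM with vehicle and 21.1, 22.7 and 25.8 CPM with CYC065 in all cells, 2N and 4N.

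The remaining genes of the pathway, taken from lists set by function, included both genomes. Transcripts of the 13 subunits encoded by mitochondrial DNA rose in 9 cases and fell in none, against 25.1% and 29.9% of all genes. Their median log2 fold change was 0.48. The transcript of mt-Co1, the catalytic core of complex IV, was at 3882, 1384 and 2566 CPM with vehicle and 7829, 2529 and 3076 CPM with CYC065 (0.72 ± 0.18, adjusted p = 0.0181, edgeR). The largest rise was that of mt-Co2 (1.03 ± 0.26, adjusted p = 0.0178, edgeR), and mt-Atp6 was at -0.0047 and not called. The rows of mt-Co1, mt-Co2 and mt-Atp6 held fractional counts, so that reads were split between them and other genes. Among rows with whole counts, mt-Nd1, mt-Nd2, mt-Atp8 and mt-Nd5 rose, at 0.48, 0.48, 0.57 and 0.44. The remaining rows with whole counts, mt-Cytb and mt-Nd6, were at 0.27 and 0.19 and were not called. The mitochondrial transcripts summed to 10062 and 17157 CPM in unsorted vehicle and CYC065 cells, 3335 and 5539 CPM in 2N cells and 5795 and 6608 CPM in 4N cells, so sorted libraries held less of them. Between 4N and 2N cells mt-Co2 was the only one of the 13 called, with a log2 fold change of 1.06 and an edgeR adjusted p of 0.0279. That call also rests on a row with fractional counts. Median ratios of these 13 were 0.62 in all cells, 0.65 in 2N cells and 0.08 in 4N cells.

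Several electron carriers and assembly factors that are not members fell. Cycs, which is cytochrome c, was at 77.8, 98.4 and 117 CPM with vehicle and 17.8, 28.8 and 29.5 CPM with CYC065 (-1.96 ± 0.11, adjusted p = 0.000293, edgeR), a 3.90-fold lower level. Cyc1, the cytochrome c1 subunit of complex III, fell as well (-1.14 ± 0.10, adjusted p = 0.000514, edgeR). Of 6 complex III assembly factors 5 fell, against 29.9% of all genes. The lowest values were those of Lyrm7 (-1.30 ± 0.30), Uqcc3 (-1.17 ± 0.19) and Bcs1l (-1.12 ± 0.11), which inserts the Rieske protein. Lyrm7 was a low transcript, at 0.41 to 1.33 CPM, and the order of the 3 lies within their SE. Of 20 complex IV assembly factors 8 fell and none rose, against 29.9% and 25.1% of all genes. Among these, Coa3 was at -2.01, Pet100 at -1.39, Coa7 at -1.36 and the copper chaperone Sco2 at -1.04. Of 4 complex II assembly genes Sdhaf1 fell (-1.74) and Sdhaf3 rose (0.41), and of 4 ATP synthase assembly and inhibitor genes Atpaf2 (-1.0) and Tmem70 (-0.34) fell.

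Mitochondrial ribosomal proteins, which translate the mitochondrial transcripts, fell in 63 of 78 cases and rose in none, against 29.9% and 25.1% of all genes. Their median was -0.69, with Mrps2 lowest at -2.48. Among 13 transcriptional regulators of respiratory genes 6 fell and 1 rose, against the same shares of all genes. The coactivator Ppargc1a rose, from 9.37, 2.08 and 3.10 CPM to 33.6, 12 and 14.9 CPM (2.2 ± 0.17, adjusted p = 0.000407, edgeR). Its relative Pprc1 fell (-1.14), as did Nrf1 (-0.82), Tfb1m (-0.85) and Tfam (-0.54), the packaging and transcription factor of mitochondrial DNA. Esrra, Gabpa, Yy1 and Myc were at -0.29, -0.14, 0.17 and 0.42, not called.

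**Figure D5:**
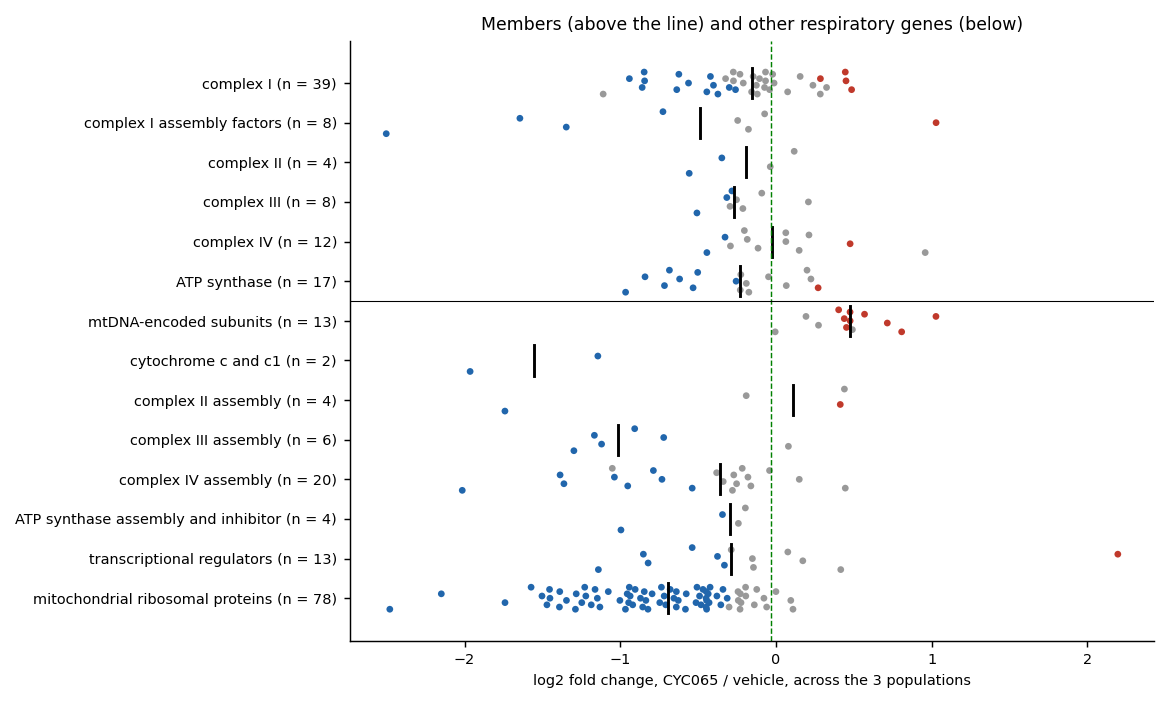
Log2 fold change of CYC065 over vehicle (horizontal axis) for the tested members of each complex, above the line, and for other respiratory genes, below it. Points are genes (red higher, blue lower, grey not called), black bars are medians and the dashed green line is the median of all genes. The mtDNA-encoded subunits lie to the right (median 0.48) and the mitochondrial ribosomal proteins to the left (median -0.69).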

How the data were processed

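ED1SQ4 cells of 6 conditions were measured by stranded, rRNA-depleted RNA sequencing. Reads were trimmed with cutadapt 1.18, aligned to mm10 with STAR 2.7.0f in 2-pass mode and quantified on GENCODE M21 with RSEM (1.3.1 per the submitters' processing notes). The values deposited by the authors are RSEM expected counts per gene, not normalized, with reads shared between genes split by the model, which left 9.66% of genes with fractional values. Whether counting used strand is not given in the sources used here. All 55450 row names matched GENCODE M21.

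The 3 columns of a condition were summed and rounded. Log2 ratios and tests used TMM factors over the 6 libraries (edgeR 4.0.16, R 4.3.3), genes with at least 30 counts in 1 library, Benjamini-Hochberg adjustment over all genes tested and a threshold of 0.05. Ratios of single libraries carry counting error only and a prior count of 0.5. Correlations between columns of equal number ran from -0.43 to 0.38 over 45 pairs, with a median of -0.02. Those between columns of unequal number ran from -0.33 to 0.50. Equal numbers thus did not deviate together more than unequal ones, and they were not taken as pairs. The SE is the log2 fold change over the root of the quasi-likelihood F. Exonic length is the union of exons. Alternatives were library size scaling, DESeq2 1.42.0 (size factors and test), limma-voom 3.58.1, other filters, removal of a length trend (loess), members with under 10% shared 50-mers, and left-out columns and populations. The members and lists were chosen with earlier results of these data known. Named were, by rule, the core subunits, the isoform sets, the 2 highest and 2 lowest members of each complex in each test, untested members and those called past a log2 fold change of 1. Others were named after their values were seen, and 1 member, which stays in all counts and medians, is not reported here by name. Figures used matplotlib 3.10.9.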

Additional observations from a re-analysis of the deposited data

Results flagged for a closer look

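Some members had effects of opposite sign in 2 groups under the same contrast, with 95% counting intervals that excluded 0 in each. The difference between the groups was not tested, since there was 1 library per condition, and the intervals cover counting error only. How many of all genes meet this rule is not given here. For CYC065 against vehicle, the log2 ratio of Ndufa5 was -0.29 in 2N cells and 0.13 in 4N cells, that of Sdhd 0.16 and -0.084, and that of Cox4i1 0.054 and -0.091. Library size scaling alone moved the median ratio of all genes from -0.07 to 0.07 in 2N cells and from -0.03 to 0.11 in 4N cells. Such a shift exceeds the 4N values of Sdhd and Cox4i1, so their opposite signs depend on the scaling. For 4N against 2N cells, the log2 ratio of Ndufa5 was -0.24 with vehicle and 0.19 with CYC065. The corresponding values were 0.16 and -0.17 for Ndufa7, 0.13 and -0.14 for Ndufs3, 0.11 and -0.15 for Uqcrfs1, and 0.056 and -0.085 for Cox7b.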

How the results depend on the processing

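Of the 39 members called with CYC065, 19 (17 lower and 2 higher) were called under all 15 alternatives, among them the 3 c ring genes, Atp5a1, Atp5b, Ndufaf8, Ndufaf4, Ndufaf3, Ndufaf1, Sdhb and Cox6c, and none reversed. The 15 are not equally strict. Both edgeR fits on the columns kept all 39 calls, and leaving out 1 column kept 36 or 37, but these reuse parts of the same libraries. Without the 2N libraries 21 calls were kept, and without the 4N libraries 24. Leaving out column 1, 2 or 3 gave 7 to 8 higher and 29 to 31 lower. The members higher were 12 after the length trend was removed, 2 without the 2N libraries and 4 without the 4N libraries, and the members lower were 19 and 20 without them. Leaving out 1 population gave 2 to 10 higher and 19 to 37 lower. On the 18 columns, 22 were higher and 54 lower without a replicate block (81.9% of all genes called) and 22 and 53 with it (81.0%). For 4N against 2N the columns gave 13 higher and 7 lower without the replicate block (32.2% of all genes called) and 11 and 6 with it (27.7%), against 0 in the summed libraries. Column spread is that of 1 library, near counting error for genes with whole counts and above it for those with fractional counts.

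Median log2 fold changes with CYC065 under library size scaling were -0.079 for complex I, -0.19 for complex III and -0.15 for ATP synthase. With DESeq2 size factors complex III was at -0.25. Without the length trend complex I was at -0.078, complex III at -0.17 and complex IV at 0.074. Over members with under 10% shared 50-mers, complex I was at -0.27, its assembly factors at -0.25 and complex IV at 0.063. For 4N against 2N, removal of the length trend gave medians of 0.048 for complex I and 0.055 for ATP synthase, and members with under 10% shared 50-mers gave -0.0031 for complex III and -0.020 for ATP synthase.

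Members past a log2 ratio of 1 were 7 in all cells without the count filter (42.8% of all genes). In 2N cells they were 5 with library size scaling (27.7%), 5 by edgeR on the columns with or without the replicate block (27.5%) and 4 by DESeq2 on them (27.2%). Without the count filter, 4N against 2N gave 3 past 1 and 3 past 0.5 with vehicle (24.3% and 36.6% of all genes). With CYC065 these were 4 and 7 (27.9% and 40.9%), and for the difference 3 and 5 (35.5% and 48.9%). Without 1 column these counts ranged from 0 to 1 (3.14% to 21.3% of all genes). With at least 100 counts the difference had 0 past 0.5 (11.9% of all genes). With the longest transcript as length the median level per kilobase was 31.5 for complex I, 35.5 for complex II, 46.0 for complex III, 93.8 for complex IV and 65.5 for ATP synthase. The cause of these shifts was not tested. With 1 library per condition, no result here measures the spread between cultures. Members are short genes, with a median longest transcript of 1135 bases against 3140 for all genes tested, and 21 of the 88 share over 10% of their 50-mers with other genes.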
